A study of Mus musculus with 31 samples.

Results

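Female and male hearts were compared in Val/Val mice, the control genotype of the BDNF Val66Met line, across the autosomal genes of the deposited expression table. Of 13840 gene symbols in the table, 13733 had a mean of at least 29 normalized counts over the 31 hearts of the series, and 13027 of these lie on an autosome. The female group held 6 whole hearts and the male group 5, all from mice of 8 weeks, and the remaining hearts came from Val/Met and Met/Met mice of both sexes. Val66Met is a substitution in brain-derived neurotrophic factor (BDNF), a neurotrophin that is also made in the heart and its vessels. The labels list hBDNF as the transgene of every mouse, with Val/Val as the genotype of these 11. The study's methods describe mice bred from heterozygous parents of a line that carries a knocked-in human BDNF Met allele, used as littermates where possible, and its limitations set that mutated human form against mouse BDNF in the controls. The strain, the stage of the oestrous cycle and the time of day at which each heart was taken are not given in the sources used here.

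Normalized counts are the values as the authors deposited them, described as scaled to the total reads of each heart. A log2 difference is the mean log2 value of the female hearts minus that of the male hearts. Its standard error (SE) and p come from limma over all 31 hearts, and p is 2-sided and Benjamini-Hochberg adjusted over 13733 genes. The gene Gm4613 had 1 extreme value (9.18867e+12 in male replicate 4). Without this gene, the values summed to between 28268518 and 28424129 in the female hearts and between 28711913 and 29010329 in the male hearts. These sums thus did not overlap between the sexes. How many reads stand behind a value is unknown, so precision is given by the spread of hearts. The leading number of each library name sorts the hearts into 3 library sets, and within a group all sets have the same mean log2 value for each gene, to within 8.93e-06. Scaling to total reads would not make these means equal, so the value printed for a heart appears to have been adjusted further, by a step that the sources used here do not give, and the spread between hearts is that of the adjusted values. Male replicate 3, alone in its set, therefore sits at the male mean in 13732 of the 13733 genes and adds no spread. The fit counts the sets by using 1 mean per group and set, which leaves 17 residual degrees of freedom. No female Val/Val heart belongs to the set of male replicate 3, so this set and sex cannot be told apart, and values within a set give the same difference as all hearts. Fits below that leave out 1 heart use values that appear to have been adjusted with that heart included. They therefore cannot show what data without that heart would give.

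To check the labelled sex, X-linked genes that escape inactivation were read, and Kdm5c, Eif2s3x and Kdm6a were higher in every female than in every male heart. Kdm5c, a histone demethylase, had a log2 difference of 0.71 (SE 0.0549, adjusted p = 1.2e-07, limma), and Eif2s3x and Kdm6a differed by 0.81 and 0.99. Ddx3x, an RNA helicase, differed by 0.60 (adjusted p = 0.0284, limma) with overlap, a call lost in 7 of 11 fits that each leave out 1 heart (highest 0.0802, without male replicate 1). Xist and the Y-linked genes were not analysed here, so the check rests on the X-linked genes above. Of the X-linked genes at an adjusted p under 0.05 (limma), 0 reached 2-fold. Heart muscle markers were high in both sexes, and the summed level of 10 cardiomyocyte markers ran from 2752310 to 3540880 in female and from 3163440 to 3276680 in male hearts. Of 11 lung and 10 neutrophil markers, 0 were among the symbols of the table, and 1 of 15 T cell markers was. Nearly all symbols of the table reached the minimum mean, so genes of low level may have been left out of it. The absence of a marker therefore cannot tell whether such cells were present. In whole hearts, fewer cells of a type and less RNA per cell cannot be told apart.

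The ribosomal RNA gene CT010467.1, a measure of how much ribosomal RNA a library kept, had 22070.3, 7756, 13084, 14092 and 12148 normalized counts in the male hearts and 25216 to 136460.0 (median 88861) in the female hearts. Every female heart was above every male heart, at a log2 difference of 2.61 (SE 0.874, adjusted p = 0.138, limma, and 0.0342 with the 11 Val/Val hearts alone in the fit). In Val/Met and Met/Met hearts its difference had the other sign, at -1.70 and -1.74. Lars2, a mitochondrial tRNA synthetase, moved with it, at 2.17 in Val/Val hearts, -0.90 in Val/Met hearts and -0.93 in Met/Met hearts. Both are in the marker list of ribosomal RNA and RNAs without a poly(A) tail, and Lars2 is not read here as a separate gene difference. Female replicate 5 had the lowest CT010467.1 value of the females, 25216, and is named beside the main results. The part of ribosomal RNA in the differences of other genes was not tested beyond those values.

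The smallest p of all genes was that of Dbp, an output gene of the circadian clock. At p under 0.05, 15 of the 20 clock genes (75%) differed between the sexes, against 15% of all autosomal genes. In this clock, ARNTL (BMAL1) with CLOCK or NPAS2 binds E-boxes and drives the Per and Cry genes, Nr1d1, Nr1d2, Dbp, Ciart and Bhlhe40. PER and CRY proteins then repress that activation. NR1D1 and NR1D2 repress Arntl, Npas2, Cry1 and Nfil3 through ROR elements that RORA activates, and DBP, TEF and HLF activate D-boxes that NFIL3 represses. The levels of these RNAs rise and fall over each day in mouse tissues, heart included, and Arntl and Npas2 peak at other hours than Dbp and the Per genes. Start-site windows of 5 of these genes are printed to show these elements in genes that were higher (Ciart, Per1, Per3) and lower (Arntl, Nfil3) in female hearts. They were taken from the windows that hold a match. They are RefSeq sequences of GRCm38.p6, 250 bases before to 50 bases after a start site, with the matched motifs in capitals.
Ciart, chr3:95882179-95882478, minus strand: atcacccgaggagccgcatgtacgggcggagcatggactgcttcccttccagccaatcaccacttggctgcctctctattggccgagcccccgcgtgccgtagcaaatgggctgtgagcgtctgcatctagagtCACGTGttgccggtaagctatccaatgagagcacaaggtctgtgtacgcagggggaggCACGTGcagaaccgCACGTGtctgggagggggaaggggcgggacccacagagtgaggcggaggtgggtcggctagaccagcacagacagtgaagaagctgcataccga
Per1, chr11:69098699-69098998, plus strand: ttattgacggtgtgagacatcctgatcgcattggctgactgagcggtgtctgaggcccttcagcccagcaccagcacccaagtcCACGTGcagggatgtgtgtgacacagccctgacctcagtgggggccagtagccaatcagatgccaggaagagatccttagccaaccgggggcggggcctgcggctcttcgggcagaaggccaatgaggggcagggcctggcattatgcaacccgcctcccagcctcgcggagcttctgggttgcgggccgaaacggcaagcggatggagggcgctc
Per3, chr4:151044616-151044915, minus strand: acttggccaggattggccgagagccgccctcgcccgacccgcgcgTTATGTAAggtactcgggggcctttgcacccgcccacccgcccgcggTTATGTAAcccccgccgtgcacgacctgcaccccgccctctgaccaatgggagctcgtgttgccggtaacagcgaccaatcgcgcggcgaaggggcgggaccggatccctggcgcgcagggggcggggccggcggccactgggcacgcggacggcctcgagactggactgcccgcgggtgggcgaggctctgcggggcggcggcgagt
Arntl, chr7:113207261-113207560, plus strand: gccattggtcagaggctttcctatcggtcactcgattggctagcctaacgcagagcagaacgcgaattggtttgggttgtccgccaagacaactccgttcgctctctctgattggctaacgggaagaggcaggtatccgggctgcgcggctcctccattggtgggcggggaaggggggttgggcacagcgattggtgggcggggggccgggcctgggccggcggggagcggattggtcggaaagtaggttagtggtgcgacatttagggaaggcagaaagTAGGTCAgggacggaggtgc
Nfil3, chr13:52980990-52981289, minus strand: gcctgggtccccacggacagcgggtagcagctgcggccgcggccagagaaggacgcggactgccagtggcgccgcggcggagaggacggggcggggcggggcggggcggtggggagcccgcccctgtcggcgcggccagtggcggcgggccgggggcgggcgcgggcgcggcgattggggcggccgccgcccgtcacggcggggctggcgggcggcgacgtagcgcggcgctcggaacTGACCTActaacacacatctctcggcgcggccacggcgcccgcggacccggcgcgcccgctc
The letters searched on both strands were CACGTG (E-box), TTATGTAA (D-box), TAGGTCA (ROR element) and TGACGTCA (cAMP response element), and no 2 matches in these windows overlap. Windows were at hand for 17 of the 20 clock genes (22 windows). An E-box was in 6 of the 22 windows, in Ciart, Per1, Cry1, Bhlhe41 and Tef, against 7.15% of all 32851 windows. The 3 E-boxes of Ciart begin at positions -116, -58 and -44 from its start site. Among the clock genes the D-box was in the window of Per3, at positions -205 and -158, and it was in 0.938% of all windows. The ROR element was in 1 window each of Arntl and Nfil3 and in 2.606% of all windows, and in Nfil3 it lies on the other strand and is printed as TGACCTA. The cAMP response element was in the window of Hlf and in 1.79% of all windows. The windows of Dbp, Nr1d1 and Npas2 held no match, and Cry1, with an E-box, was lower in female hearts. These are matches of letters in short windows, and no binding was measured.

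At an adjusted p under 0.05 (limma, any fold), 130 autosomal genes were higher and 93 lower in female Val/Val hearts, 0.998% and 0.714% of those tested. By the criterion of the study, p under 0.05 unadjusted with at least 1.5-fold, 128 were higher (0.983%) and 109 lower (0.837%). Most differences were small, since the median size among the 223 genes was 1.37-fold, 85 reached 1.5-fold and 23 reached 2-fold. In 193 of the 223, all female hearts lay on one side of all male hearts. Over all autosomal genes the females lay above in 3.06% and below in 2.4%. The 223 were picked by a small p from these same hearts, so the count of 193 is not separate from that selection. Of the 223, 205 (91.9%) are protein-coding, against 87.9% of those tested. The count of 223 changed when single hearts were left out. It fell most without male replicates 1 (124), 3 (143) and 5 (105) and female replicates 3 (112) and 6 (122). It rose to 291 without male replicate 2 and to 227 without male replicate 4. With the 11 Val/Val hearts alone in the fit, 74 genes passed, 57 of them among the 223.

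**Figure D1:**
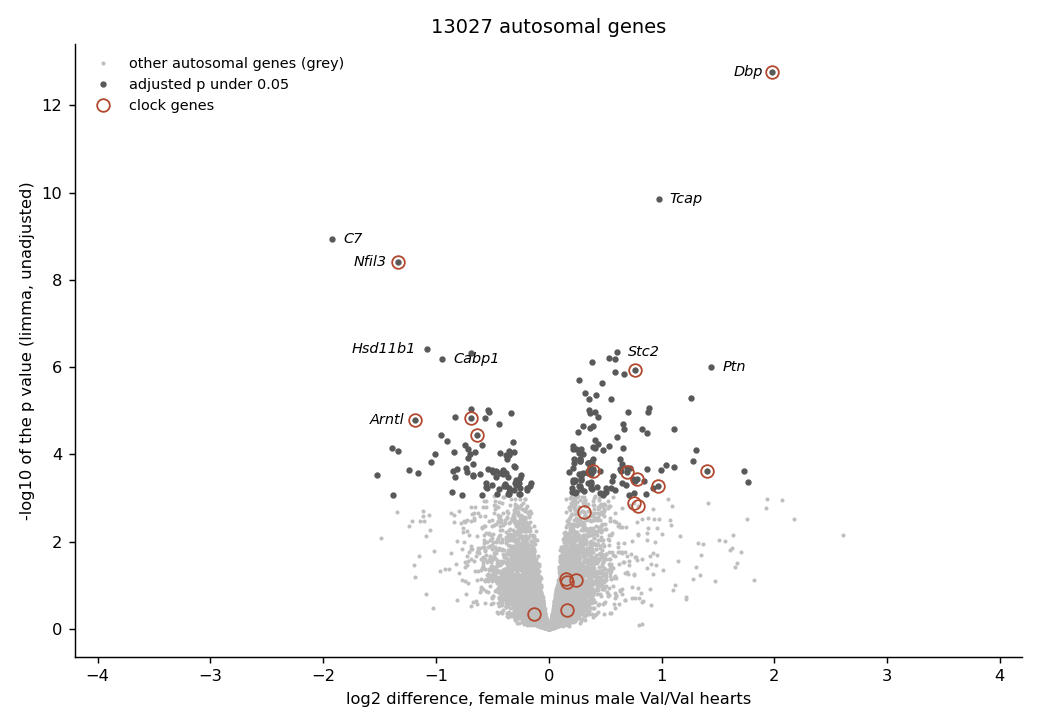
Each point is 1 of the 13027 autosomal genes, with the log2 difference (female minus male Val/Val hearts) on the x axis and -log10 of the unadjusted limma p on the y axis. Dark points have an adjusted p under 0.05 and red rings mark 19 of the clock genes, of which Dbp has the smallest p of all genes, and 1 gene lies outside the x axis.

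The hearts of Val/Met mice, which are not shared with this comparison, gave a further measurement of the 223 genes, but not a fully separate one. They come from the same library sets, and the paper describes the mice as litter-matched in batches. The fit also uses the same variance of a gene for every genotype. Genes picked for a small p in Val/Val hearts can carry a low variance into the p of the other genotypes. The sex difference in Val/Met hearts had the same sign in 222 genes (99.6%), where 72.5% of all autosomal genes had. Of the 223, 189 also passed p under 0.05 in that direction. The exception, named after its values were seen, was Map3k21, a kinase of stress signalling, with 0.55 in Val/Val and -0.37 in Val/Met hearts, and its adjusted p of 0.0397 (limma) was lost in 9 of 11 fits that leave out 1 heart (highest 0.106, without male replicate 5). In Val/Met hearts, 7.07% of autosomal genes were higher and 7.78% lower in females at p under 0.05. In Met/Met hearts, where 12.9% were higher and 16.9% lower, the sign was the same in 181 of the 223 (81.2%, against 58.7% of all), and 110 passed p under 0.05 in that direction. Tested directly, the sex difference of Val/Met and Val/Val hearts differed in 0 autosomal genes (0%) at an adjusted p under 0.05 (limma), and in 249 at an unadjusted p under 0.05. The sex difference of Met/Met and Val/Val hearts differed in 29 genes (0.223%), of which 16 were among the 223 and 5 are clock genes. The 223 were selected by the same Val/Val values that enter this test, so the count of 16 is not separate from that selection.

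All 20 clock genes were tested. At p under 0.05, 10 were higher and 5 lower in female hearts, where the shares over all autosomal genes were 7.96% and 6.99%, and 7 higher and 5 lower passed the adjusted threshold. The median log2 difference was 0.28 over the 20 and -0.0014 over all autosomal genes. The hearts of the sexes did not overlap in 14 of the 20, where they did not in 5.45% of all autosomal genes. The counts at p under 0.05 stayed at 10 and 5 in the fits that leave out 1 heart, except for 11 higher without male replicate 2 and 12 higher without male replicate 4. The number at an adjusted p under 0.05 ran from 7 (without male replicate 5 or female replicate 3) to 13 (without male replicate 2).

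Dbp (chromosome 7, 45705088 to 45710203, GRCm38 as all positions here), a D-box activator and direct output of the clock, differed most of the clock genes. It had 862, 1169, 1004, 1107 and 910.3 normalized counts in the male hearts and 3639.9 to 4368 (median 3911) in the female hearts. Every female heart thus stood far above every male heart. The means were 1010.3 ± 129 (SD, n = 5) and 3955 ± 266 (SD, n = 6), a 3.93-fold difference, with a log2 difference of 1.98 (SE 0.121, adjusted p = 2.34e-09, limma). Female replicate 5, with the least ribosomal RNA of the females, had 3792. Tef, which acts on the same D-boxes, was also higher in each female, with 3665, 4052, 3854, 4471 and 3321 in males against 4603 to 5068 (median 4749), but its difference of 0.31 (SE 0.0894) had an adjusted p of 0.0764 (limma). Hlf, the other activator of this family, had a difference of 0.24 (adjusted p = 0.402, limma), and its hearts overlapped.

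Nfil3 (chromosome 13, 52967209 to 52981073), the repressor of D-box genes, went the other way. It had 489, 317, 393, 398 and 389 normalized counts in the male hearts and 128 to 188 (median 157) in the female hearts, with 148 in female replicate 5. The highest female heart was below the lowest male heart, and the log2 difference was -1.33 (SE 0.14, adjusted p = 6.78e-06, limma), a 2.52-fold lower level.

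Of the activators of the clock, Arntl and Npas2 were lower in females. Arntl (chromosome 7, 113207465 to 113314126), the gene of BMAL1, had 497, 261, 360.3, 334 and 388 normalized counts in male hearts and 142 to 179 (median 159) in female hearts, with 146 in female replicate 5. Its log2 difference was -1.18 (SE 0.213, adjusted p = 0.00535, limma), 2.27-fold lower, with no overlap. Npas2, a partner of BMAL1, had 162, 137, 149, 148 and 151 in males and 83.03 to 111 (median 94.0) in females, again without overlap, at a log2 difference of -0.64 (SE 0.122, adjusted p = 0.00899, limma). Clock, the other partner, overlapped widely, with males at 2071 to 3103 and females at 1562 to 2784, with a log2 difference of -0.14 (SE 0.175, adjusted p = 0.806, limma). Rora, an activator at ROR elements, differed by 0.16 (adjusted p = 0.75, limma) with overlap.

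Of the repressors, Per1, Per3, Nr1d1, Ciart and Bhlhe40 were higher and Cry1 was lower in females. Per1 (chromosome 11, 69095217 to 69109960) had 1564, 1484, 1523, 1835 and 1265 normalized counts in males and 1906 to 3967 (median 2993) in females, the lowest in replicate 5. All females were above all males but spread over a wide range, with a log2 difference of 0.97 (SE 0.238, adjusted p = 0.0371, limma). Per2 had 285, 476, 369, 431 and 315 in males and 553 to 765 (median 608) in females, a log2 difference of 0.79 (SE 0.219, adjusted p = 0.0666, limma) without overlap. Per3 had 480.3, 896, 656, 598 and 719.7 in males and 807 to 1304 (median 1222) in females, and male replicate 2 reached into the female range. Per3 differed by 0.78 (SE 0.184, adjusted p = 0.0299, limma). Nr1d1 (REV-ERB alpha), a repressor of Arntl, had 2419, 2535, 2476, 2859.6 and 2144 in males and 3686 to 4339 (median 3963) in females, a log2 difference of 0.69 (SE 0.158, adjusted p = 0.025, limma) without overlap. Its relative Nr1d2 differed by 0.75 (SE 0.203, adjusted p = 0.0613, limma), and male replicate 2 was above the lowest female.

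Ciart, a repressor of CLOCK and BMAL1 with 3 E-boxes in its printed window, had 64.7, 58.0, 61.3, 68.2 and 55.0 normalized counts in males and 79.8 to 249.5 (median 167) in females. It was higher in each female, at a log2 difference of 1.40 (SE 0.318, adjusted p = 0.0249, limma). Bhlhe40 (DEC1), which competes for E-boxes, had 1263, 1217, 1240.2, 1478 and 1040.3 in males and 1951 to 2419 (median 2037) in females. Its log2 difference was 0.76 (SE 0.114, adjusted p = 0.000946, limma) without overlap, and that of Bhlhe41 (DEC2) was 0.16 (adjusted p = 0.389, limma), also without overlap. Usp2, a clock-controlled deubiquitinase, was higher in each female, by 0.39 on the log2 scale (SE 0.0896, adjusted p = 0.0249, limma). Cry1, which like Arntl is repressed through ROR elements, was lower in each female, with 309, 301, 305, 295 and 315 in males against 158 to 226 (median 195) and a log2 difference of -0.69 (SE 0.123, adjusted p = 0.00501, limma). Cry2 had a log2 difference of 0.16 (adjusted p = 0.419, limma) with overlap.

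Of the clock genes named above with an adjusted p under 0.05 (limma), Dbp, Nfil3, Bhlhe40, Cry1, Arntl and Npas2 kept it in each of the 11 fits that leave out 1 heart. Ciart lost it in 5, Usp2 in 4, Nr1d1 in 4, Per3 in 8 and Per1 in 9 of the 11. Their highest adjusted p was 0.0698 for Ciart, 0.0765 for Usp2, 0.0765 for Nr1d1 and 0.105 for Per1, all without male replicate 5, and 0.0793 for Per3 without male replicate 1. With the 11 Val/Val hearts alone in the fit, 8 clock genes passed.

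**Figure D2:**
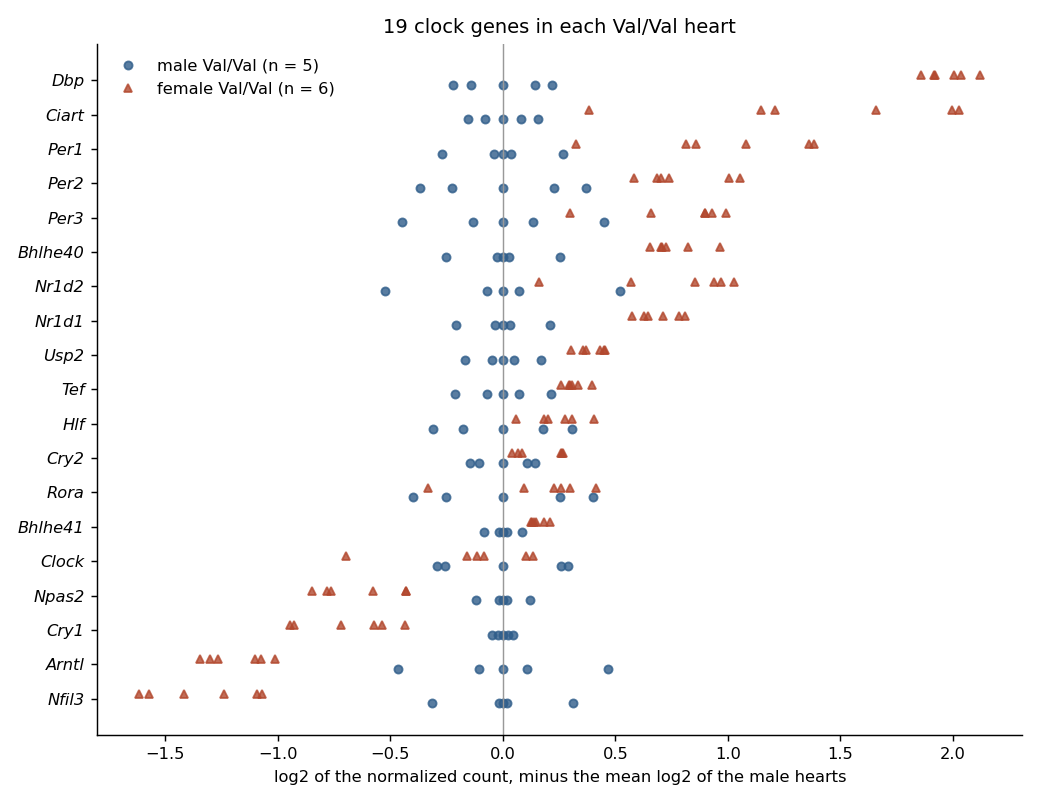
Each point is 1 Val/Val heart (blue circles, 5 males; red triangles, 6 females), with the log2 normalized count of 19 clock genes minus the male mean on the x axis. The female hearts lie to the right for Dbp, Per1, Per2 and Nr1d1 and to the left for Nfil3, Arntl, Cry1 and Npas2.

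In Val/Met hearts as well, 10 of the 20 clock genes were higher and 5 lower in females at p under 0.05. The shares over all autosomal genes there were 7.07% and 7.78%. In Met/Met hearts 1 of the 20 was higher and 5 lower, where 12.9% and 16.9% of all autosomal genes were. The log2 differences of Dbp were 1.98 in Val/Val hearts, 2.02 in Val/Met hearts and -0.25 in Met/Met hearts. Those of Nfil3 were -1.33, -1.07 and 0.063, those of Arntl -1.18, -1.11 and 0.35, and those of Bhlhe40 0.76, 0.66 and -0.33. For these 4 genes and Tef, the sex difference in Met/Met hearts differed from that in Val/Val hearts. The adjusted p (limma) of that test was 3.42e-07 for Dbp, 0.00276 for Nfil3, 0.00276 for Bhlhe40, 0.0408 for Arntl and 0.0408 for Tef, and it did not pass for the other 15 clock genes.

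**Figure D3:**
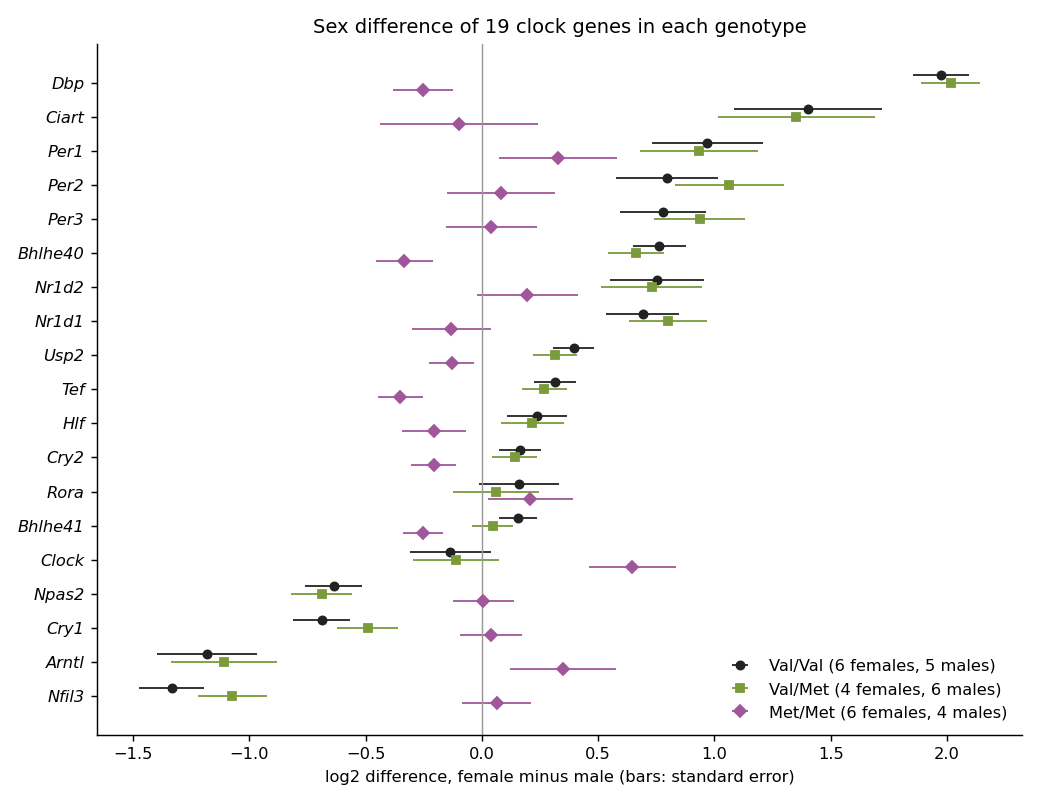
Log2 difference between female and male hearts for 19 clock genes (x axis), in Val/Val, Val/Met and Met/Met mice, with bars of 1 standard error. Val/Val and Val/Met points lie close together for Dbp (1.98 and 2.02) and Nfil3 (-1.33 and -1.07), while their Met/Met points lie nearer to 0 (-0.25 and 0.063).

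Over all autosomal genes 7.96% were higher and 6.99% lower at p under 0.05, 15% in either direction, and the share of each further list is given beside its counts to be read against these. Of 23 glucocorticoid target genes, 8 were higher and 2 lower (43.5% of members), with a median log2 difference of 0.27, and Per1 and Lcn2 alone passed the adjusted threshold. Per1 is in the clock list as well. Klf9, a transcription factor induced by glucocorticoids, differed by 0.41 (SE 0.117, adjusted p = 0.078, limma), and Klf15, another, by 0.37 (SE 0.107, adjusted p = 0.086, limma). Lcn2, the gene of the iron-binding carrier lipocalin 2, was low in both sexes, with 56.8, 50.9, 53.7, 39.1 and 73.9 normalized counts in males and 16.9 to 26.9 (median 20.1) in females. It was lower in each female, but its log2 difference of -1.38 (SE 0.356, adjusted p = 0.0494, limma) lost the call in 10 of 11 fits that leave out a heart (highest 0.125, without male replicate 5). Hsd11b1, the enzyme that regenerates active glucocorticoid inside cells, had 216, 155, 183, 186 and 179.6 in males and 77.6 to 92.2 (median 88.1) in females. It was lower in each female heart, 2.11-fold, with a log2 difference of -1.08 (SE 0.149, adjusted p = 0.000583, limma), and the differences in Val/Met and Met/Met hearts were -1.04 and -1.32.

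**Figure D4:**
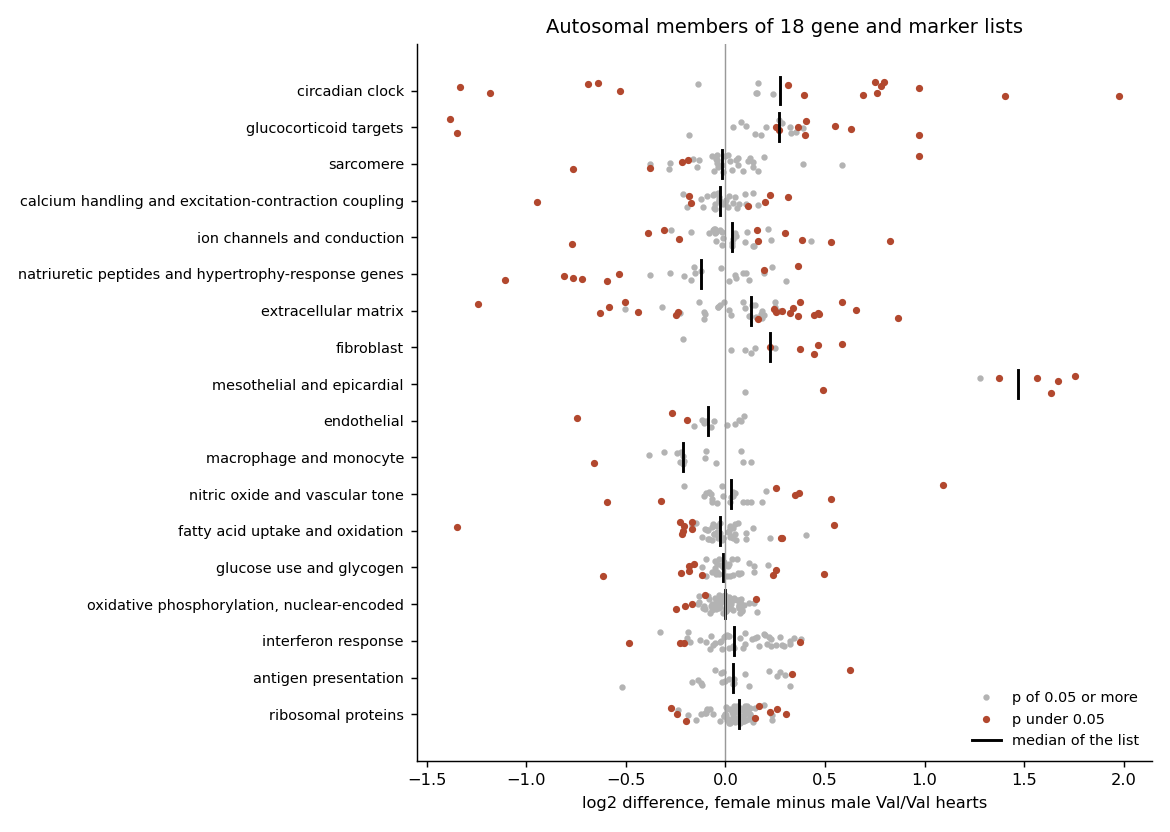
Log2 difference between female and male Val/Val hearts (x axis) of the autosomal members of 18 gene and marker lists, with members at p under 0.05 in red and the median of each list as a bar. The mesothelial and epicardial members lie to the right (median 1.47), the clock members lie on both sides of 0, and oxidative phosphorylation lies close to 0 (median -0.0038).

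Sarcomere genes as a group had no more members at p under 0.05 than autosomal genes in general, with 1 higher and 4 lower of 36 (13.9%, against 15% of all) and a median log2 difference of -0.015. The higher one was Tcap (chromosome 11, 98383811 to 98384953), the gene of titin-cap (telethonin), which joins the ends of titin at the Z-disc. It had 11211, 13709, 12397, 12999 and 11823 normalized counts in males and 21314 to 27565 (median 24358) in females, the lowest in replicate 5. No hearts overlapped, the means were 12428 ± 976 (SD, n = 5) and 24468 ± 2716 (SD, n = 6), and the log2 difference was 0.97 (SE 0.0844, adjusted p = 3.84e-07, limma), 1.96-fold. In Val/Met hearts the difference was 0.97 and in Met/Met hearts -0.016, and the Met/Met difference was smaller than that in Val/Val hearts (adjusted p = 0.000521, limma). Trim54 (MuRF3), a ubiquitin ligase of the sarcomere, was 1.30-fold lower in females with overlap (log2 difference -0.38, SE 0.0862, adjusted p = 0.025, limma), a call lost in 5 of 11 fits that leave out a heart (highest 0.0765, without male replicate 5). Ankrd23, an ankyrin repeat protein that binds titin, had 9934, 7709, 8751, 8256 and 9276 in males and 4274 to 6969.7 (median 5429.5) in females, a log2 difference of -0.69 (SE 0.119, adjusted p = 0.00416, limma) without overlap. Its relative Ankrd1 also did not overlap, with males at 8427 to 12088 and females at 5451 to 6597, but had an adjusted p of 0.198 (limma), and of 0.0144 with the 11 Val/Val hearts alone in the fit. Myl2 and Myl3, the ventricular myosin light chains, differed by 0.066 and -0.22 (adjusted p = 0.701 and 0.166, limma).

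Of 35 calcium handling genes, 4 were higher and 3 lower at p under 0.05 (20%, against 15% of all autosomal genes), with 1 adjusted call. That call was Cabp1, a calcium-binding protein related to calmodulin, with 119, 120.4, 119.6, 108 and 133 normalized counts in males and 52.0 to 74.3 (median 61.5) in females. It was 1.93-fold lower in females without overlap (log2 difference -0.95, SE 0.135, adjusted p = 0.000632, limma). The difference was -0.45 in Val/Met hearts and 0.40 in Met/Met hearts, and the Met/Met and Val/Val differences differed (adjusted p = 0.00276, limma). Atp2a2, the calcium pump SERCA2, had 591958, 558912, 575198, 575198 and 575198 in males and 454174 to 742920.0 (median 585302) in females, a log2 difference of 0.014 (SE 0.111, adjusted p = 0.976, limma) with overlap. Atp2a2 had the same deposited value in male replicates 3, 4 and 5. S100a1, an activator of this pump, differed by -0.17 (adjusted p = 0.199, limma).

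Of 36 ion channel and conduction genes, 6 were higher and 4 lower at p under 0.05 (27.8%, against 15% of all autosomal genes), with 3 adjusted calls. Gjc1 (connexin 45), a gap junction protein of conduction tissue, had 551, 632, 590.2, 624 and 558 normalized counts in males and 718 to 808 (median 779.7) in females, a log2 difference of 0.38 (SE 0.0556, adjusted p = 0.000686, limma). Tbx5, a transcription factor of the heart, atria and conduction tissue included, had 700.5, 709.985, 705, 862 and 577 in males and 946 to 1087 (median 1019) in females. Its log2 difference was 0.53 (SE 0.107, adjusted p = 0.0136, limma). Both genes were higher in each female heart, and both calls held whichever 1 heart was left out. The summed level of 8 atrial markers ran from 25076 to 36232 in females and from 21999 to 30219 in males, and 0 of the 8 passed p under 0.05, where their part in the level of Tbx5 was not tested. Scn4b, a beta subunit of sodium channels, was lower in each female, with 1686, 1144, 1389, 1670.4 and 1155 in males against 573 to 1061 (median 863). Its log2 difference of -0.77 (SE 0.198, adjusted p = 0.0496, limma) lost the call in 8 of 11 fits, at most 0.116 without male replicate 1. Kcnh2, the channel of the rapid delayed rectifier current, differed by 0.30 with an adjusted p of 0.0526 (limma), and no hearts overlapped.

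Of 25 genes of natriuretic peptides and the hypertrophy response, 2 were higher (8%, against 7.96% of all autosomal genes) and 6 lower (24%, against 6.99%) at p under 0.05, with a median log2 difference of -0.12. Rcan1, an inhibitor of calcineurin that calcineurin induces, had 3189, 2118, 2599, 2791 and 2421 normalized counts in males and 1692 to 2056 (median 1764) in females, a log2 difference of -0.54 (SE 0.0927, adjusted p = 0.00416, limma) without overlap. Ace, the angiotensin-converting enzyme, had 2456, 1507, 1924, 2022 and 1831 in males and 1123 to 1574 (median 1235) in females. Male replicate 2 lay within the female range, and the log2 difference was -0.59 (SE 0.119, adjusted p = 0.0131, limma). Nppb, the B-type natriuretic peptide and a marker of wall stress, had 3275, 1788, 2419.8, 2116 and 2767 in males and 1125 to 1657 (median 1380.1) in females. The hearts did not overlap and the level was 1.75-fold lower in females, but the males spread widely and the log2 difference of -0.81 (SE 0.286) had an adjusted p of 0.163 (limma). Nppa, the atrial peptide, differed by 0.053 (SE 0.4, adjusted p = 0.975, limma), with 1 female heart (replicate 6) at 6439 and the others between 1753 and 2771. Acta1, skeletal alpha-actin, differed by -1.11 (SE 0.334, adjusted p = 0.0946, limma) with overlap.

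**Figure D5:**
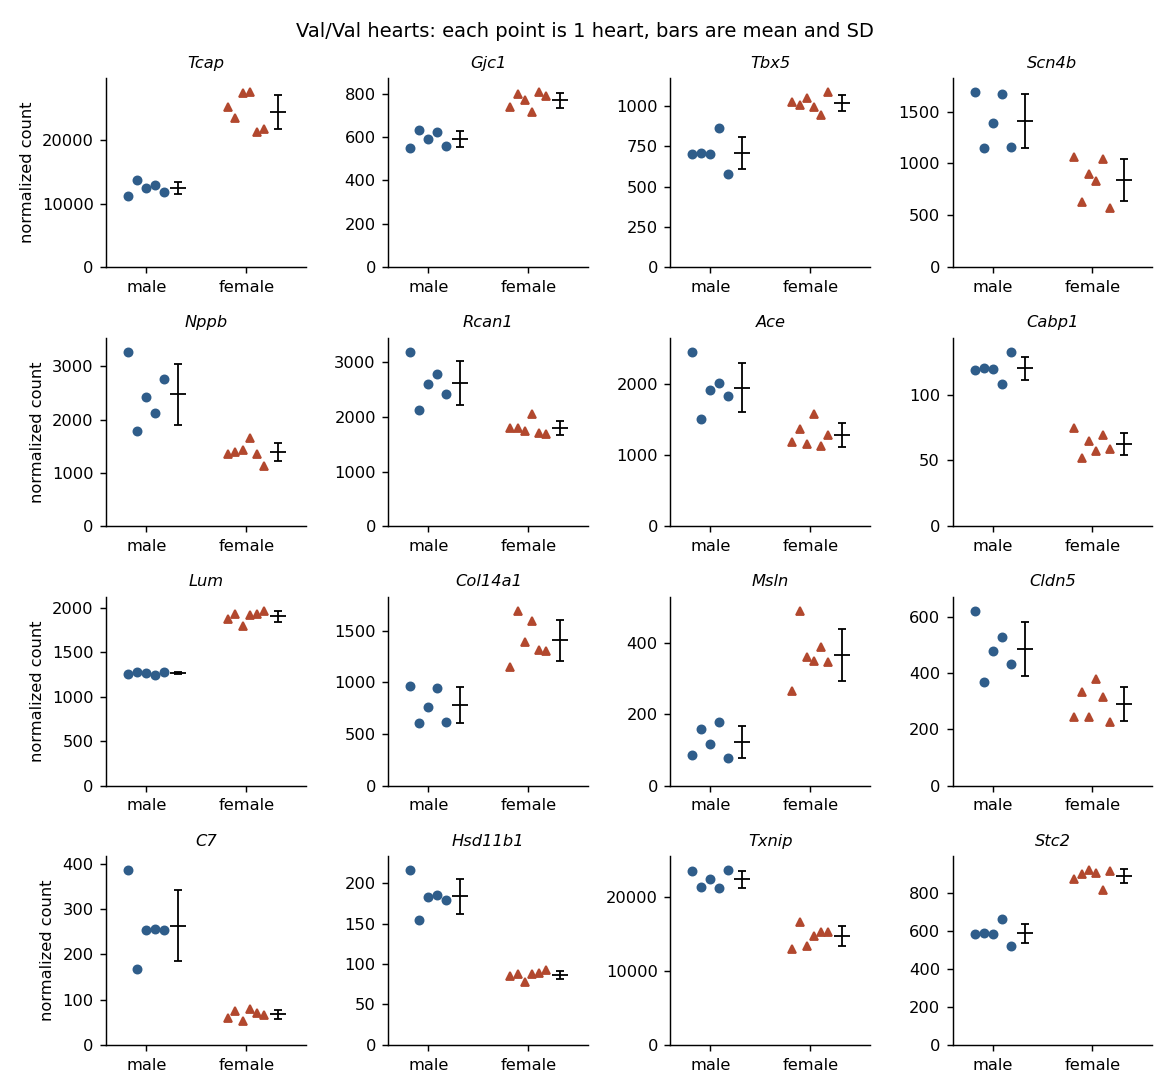
Normalized counts (y axis, from 0) of 16 genes in each of 5 male (blue circles) and 6 female (red triangles) Val/Val hearts, with the mean and SD of each group beside the points. Tcap, Gjc1, Tbx5, Lum, Col14a1, Msln and Stc2 lie higher in each female heart, and Scn4b, Nppb, Rcan1, Cabp1, C7, Hsd11b1 and Txnip lie lower, while Ace and Cldn5 overlap.

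Of 48 matrix genes, 14 were higher (29.2%, against 7.96% of all autosomal genes) and 7 lower (14.6%, against 6.99%) in females at p under 0.05, with a median log2 difference of 0.13. Of 11 fibroblast markers 5 were higher (45.5%) and 0 lower (median 0.22). Matrix genes such as Lum and Col3a1 are also among the fibroblast markers, so these lists and the summed level below are not separate evidence. The summed level of the fibroblast markers ran from 66812 to 87475 in females and from 56854 to 71545 in males, and its part in the matrix genes was not tested. Lum, the small proteoglycan lumican that organizes collagen fibrils, had 1252, 1279, 1265, 1249 and 1282 normalized counts in males and 1799 to 1962 (median 1921) in females. It differed by 0.59 (SE 0.0841, adjusted p = 0.000632, limma). Col14a1, a fibril-associated collagen, had 966, 604, 764, 946 and 617 in males and 1151 to 1690.2 (median 1352) in females, a log2 difference of 0.87 (SE 0.166, adjusted p = 0.00869, limma). Neither gene overlapped, and both calls held whichever 1 heart was left out. Timp3, an inhibitor of metalloproteinases, was 1.29-fold higher (adjusted p = 0.0249, limma) and Dpt, the matrix protein dermatopontin, 1.30-fold higher (adjusted p = 0.0355, limma), each without overlap. Without male replicate 5 their adjusted p was 0.0684 and 0.0879, and the call was lost in 5 and 9 of 11 fits. The fibrillar collagen Col3a1 differed by 0.47 and the microfibril protein Mfap5 by 0.44 (adjusted p = 0.0638 and 0.0557, limma), both with overlap.

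Markers of the mesothelium and epicardium, the outer cell layer of the heart, showed the largest median log2 difference of the 42 lists, 1.47 over 8 genes, of which 6 were higher (75%, against 7.96% of all autosomal genes) and 0 lower at p under 0.05. Of the 8, 0 passed the adjusted threshold in the fit of all hearts (limma), while 2 passed it with the 11 Val/Val hearts alone in the fit, Msln (adjusted p = 0.0276) and Upk1b (0.0425), and 5 passed with 1 mean per group and no library set. Their summed level ran from 1384 to 2569 in females and from 607 to 1142 in males, without overlap. Msln (mesothelin) had 85.4, 159.6, 117, 178 and 76.5 normalized counts in males and 267 to 491 (median 356) in females. It was 3.10-fold higher without overlap, at a log2 difference of 1.63 (SE 0.546, adjusted p = 0.137, limma). Upk1b and Upk3b, uroplakins of this layer, differed by 1.76 and 1.56 (adjusted p = 0.0922 and 0.158, limma), and Lrrn4, Bnc1 and Krt19 by 1.37, 1.67 and 1.28 (adjusted p = 0.176, 0.275 and 0.39, limma). Tbx18, an epicardial transcription factor, differed by 0.49 (SE 0.133, adjusted p = 0.0634, limma) without overlap, while the factor Wt1 differed by 0.099 (adjusted p = 0.891, limma) with overlap. Outside the list, the mucin Muc16 and the endocytic receptor Lrp2 had among the largest differences without overlap, at 1.93 and 2.07 (adjusted p = 0.0685 and 0.0557, limma). How much of the outer layer stayed on each heart is not given in the sources used here.

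Of 27 genes of nitric oxide and vascular tone, 5 were higher and 2 lower at p under 0.05 (25.9%, against 15% of all autosomal genes). Pde3a, a phosphodiesterase of cyclic nucleotides, and Gucy1a1, a subunit of soluble guanylate cyclase, were 1.29-fold and 1.28-fold higher in females (adjusted p = 0.0244 and 0.0249, limma). Both overlapped and lost the call in 2 and 5 of 11 fits, at most 0.0595 without male replicate 1 and 0.0725 without male replicate 5. Adora2b, an adenosine receptor, differed by 1.09 (SE 0.301, adjusted p = 0.0667, limma), with males at 19.5 to 43.1 and females at 33.5 to 105. Of the cell type markers of vessels, Acta2, smooth muscle alpha-actin, had 2064, 1361, 1676, 2113 and 1329 normalized counts in males and 2469 to 4016 (median 3011) in females. It was higher in each female (log2 difference 0.84, SE 0.201, adjusted p = 0.0322, limma), and without male replicate 5 its adjusted p was 0.0953, the highest of 7 fits that lost the call. It was the only one of 11 smooth muscle and pericyte markers at p under 0.05, and their sum overlapped, from 49642 to 54702 in females and from 46089 to 57579 in males. Cldn5, the endothelial tight junction protein claudin 5, had 622, 369, 479, 529 and 433 in males and 227 to 381 (median 279.8) in females, with overlap at male replicate 2. Its log2 difference was -0.75 (SE 0.15, adjusted p = 0.0136, limma), and of 14 endothelial markers 0 were higher and 3 lower (21.4%) at p under 0.05.

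The lists of energy metabolism lay on both sides of the 15% of all autosomal genes at p under 0.05. Nuclear-encoded oxidative phosphorylation had 1 higher and 4 lower of 71 genes (7.04%) and a median log2 difference of -0.0038, and the citric acid cycle 1 and 1 of 17 (11.8%). Fatty acid uptake and oxidation had 3 higher and 7 lower of 51 (19.6%). Cpt1a, an enzyme that brings long-chain fatty acids into mitochondria, was 1.21-fold higher in females with overlap (adjusted p = 0.0196, limma), and Cpt1a lost the call without male replicate 5 (0.0586). Angptl4, an inhibitor of lipoprotein lipase, had 620.3, 235, 382, 475 and 307 normalized counts in males and 103 to 246 (median 142) in females, a log2 difference of -1.34 (SE 0.384, adjusted p = 0.0766, limma). Hadh, an enzyme of fatty acid oxidation, differed by -0.17 without overlap (adjusted p = 0.0985, limma). Of 37 genes of glucose use, 3 were higher and 6 lower (24.3%), and Txnip, which limits glucose uptake, had the adjusted call. Txnip had 23543, 21334, 22411, 21274 and 23609 in males and 12935 to 16629 (median 14991) in females. No hearts overlapped, at a log2 difference of -0.61 (SE 0.14, adjusted p = 0.0255, limma), but 5 of 11 fits lost the call, at most 0.0741 without male replicate 5. In Val/Met and Met/Met hearts the differences of Txnip were -0.71 and -0.68. Pfkfb3, which makes an activator of glycolysis, differed by 0.49 (adjusted p = 0.0845, limma).

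Among 42 antioxidant and detoxification genes, 5 were higher and 4 lower at p under 0.05 (21.4%, against 15% of all autosomal genes). Gstm2, a glutathione transferase, had 1331, 1295, 1313, 1471 and 1172 normalized counts in males and 1589 to 1889 (median 1661) in females, a log2 difference of 0.37 (SE 0.069, adjusted p = 0.00721, limma). Ephx1, microsomal epoxide hydrolase, was 1.37-fold higher (adjusted p = 0.0249, limma), a call lost in 5 of 11 fits (at most 0.0741, without male replicate 5). Both were higher in every female heart. Of 20 genes for sex steroid receptors and response, 3 were higher and 1 lower (20%), and Igf1r, the receptor of insulin-like growth factor 1, had the adjusted call. Igf1r had 1869, 2355, 2098, 2115 and 2081 in males and 2539 to 2887 (median 2729) in females, without overlap, at a log2 difference of 0.37 (SE 0.0857, adjusted p = 0.0255, limma). The call was lost in 5 of 11 fits, at most 0.0718 without male replicate 1. Nr3c2, the mineralocorticoid receptor, differed by 0.24 (adjusted p = 0.143, limma).

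Several immune, stress and growth lists held no gene at an adjusted p under 0.05 (limma). At p under 0.05, interferon response had 1 higher and 3 lower of 47 (8.51%), antigen presentation 2 and 0 of 23 (8.7%), ribosomal proteins 5 and 3 of 74 (10.8%) and cholesterol and lipid synthesis 1 and 1 of 26 (7.69%), all under the 15% of all autosomal genes. Heat shock and the unfolded protein response had 2 and 3 of 33 (15.2%), and cell cycle 7 and 1 of 35 (22.9%). Manf, a protein of the stressed endoplasmic reticulum, differed by -0.49 (adjusted p = 0.0511, limma) and was lower in every female. Of 15 macrophage markers, 0 were higher and 1 was lower (6.67%). Of 21 immediate early genes, 1 was higher and 4 lower (23.8%), and Ccn1, a matricellular protein, had 1828, 1229.5, 1499, 1777 and 1265 normalized counts in males and 743 to 1101 (median 958) in females. The log2 difference of Ccn1, without overlap, was -0.67 (SE 0.154, adjusted p = 0.0261, limma), lost in 5 of 11 fits (at most 0.0748, without male replicate 1). Ier5, another early gene, differed by -0.53 (adjusted p = 0.0951, limma), also without overlap. Bdnf itself had 221, 375, 288, 221 and 374 in males and 202 to 254 (median 233) in females, a log2 difference of -0.32 (SE 0.191, adjusted p = 0.454, limma) with overlap, and of 11 genes for BDNF, its receptors and processing 1 was higher and 1 lower (18.2%).

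The smallest p among genes with lower female levels was that of C7 (chromosome 15, 4988762 to 5063740), a component of the terminal complement complex. It had 385, 168, 254, 255 and 254 normalized counts in males and 53.4 to 78.9 (median 69.3) in females, with 71.6 in female replicate 5. The lowest male heart was above the highest female heart, and the level was 3.79-fold lower in females, with a log2 difference of -1.92 (SE 0.187, adjusted p = 2.62e-06, limma). The differences in Val/Met and Met/Met hearts were -1.90 and -2.06. Cpxm2, a secreted protein related to carboxypeptidases, and Lvrn, an aminopeptidase, were also lower in each female, at -1.53 and -1.34 on the log2 scale (adjusted p = 0.0265 and 0.0146, limma), with -1.45 and -1.21 in Val/Met and -1.80 and -1.57 in Met/Met hearts. The call of Cpxm2 was lost in 6 of 11 fits, at most 0.0827 without male replicate 5. Fam124b differed by -1.39 (adjusted p = 0.0142, limma), with -1.75 in Val/Met hearts and 0.12 in Met/Met hearts. Olfr1396, of the olfactory receptor family, and Nova2, a splicing regulator of neurons, were lower in each female at -0.84 and -0.57 (adjusted p = 0.00487 and 0.00491, limma).

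Of the genes with higher female levels, Ptn, the growth factor pleiotrophin, had 39.5, 32.2, 35.7, 28.3 and 44.9 normalized counts in males and 85.7 to 109 (median 95.4) in females, a log2 difference of 1.44 (SE 0.212, adjusted p = 0.000841, limma). Stc2, the secreted glycoprotein stanniocalcin 2, had 584, 589.6, 587, 662 and 519.8 in males and 818 to 919 (median 905) in females. Its log2 difference was 0.60 (SE 0.084, adjusted p = 0.000589, limma), with 0.30 in Val/Met hearts and -0.016 in Met/Met hearts, and the Met/Met and Val/Val differences of Stc2 differed (adjusted p = 0.0408, limma). Slc38a1, a glutamine transporter, Dusp18, a phosphatase, and Dedd2, a death effector domain protein, differed by 0.66, 0.58 and 0.53 (adjusted p = 0.00106, 0.000968 and 0.000632, limma). The transcription factor Foxn3 and Adamtsl3, a matrix protein related to the ADAMTS proteases, differed by 0.27 and 0.47 (adjusted p = 0.00135 and 0.0015, limma). Tent5b, of a family of poly(A) polymerases, had one of the 5 largest differences among genes without overlap, 1.93, with an adjusted p of 0.0549 (limma). Ypel2 and Steap4, a metalloreductase, were lower in females at -0.69 and -0.33 (adjusted p = 0.000589 and 0.00416, limma). None of these genes overlapped between the sexes, and apart from Tent5b their calls held whichever 1 heart was left out.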

How the data were processed

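RNA was isolated from whole hearts of the mice, and the authors sequenced paired reads, aligned them with STAR, and assigned them to Ensembl transcripts in Partek. The submitters' processing notes name STAR 3.5.1a and mm10. The deposited signal per gene is a normalized count, scaled by the authors to total reads, and is not a raw count, so no count test was used. Library sets have equal means within each group, so the values appear to have been adjusted further by a step not given in the sources used here. Groups and library sets came from the labels. Values were fitted as log2(value + 1e-04) with limma 3.58.1 in R 4.3.3 (trended eBayes, prior degrees of freedom 4.15, 1 mean per group and library set, group means weighted by hearts), for genes with a mean of at least 29 over 31 hearts, and Benjamini-Hochberg adjusted over 13733 genes. The fit was tested on simulated data first. Nothing in the labels ties hearts to extractions, so p-values measure the spread between these hearts only.

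Positions and biotypes came from GENCODE M21 (GRCm38), in which 13570 of 13840 symbols matched and 32 named more than 1 gene. A fold change on this scale is that of the geometric means.

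The genes named were those that check sex, the 12 protein-coding autosomal genes with the smallest p in each direction, the 5 with the largest fold in each direction by the study's criterion without overlap of hearts, up to 4 members per list at p under 0.05 (some left out), and a short list of genes of interest. The clock genes and the epicardial markers are described too, which was decided after their values were seen. Some genes are counted in the lists and not reported here by name. The comparison, the 23 gene lists and 19 marker lists were chosen with earlier results of these data known. Alternatives were another offset, minimum, scaling, set of hearts and model, and leaving out each heart.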

Additional observations from a re-analysis of the deposited data

Results flagged for a closer look

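For 8 of the genes named here the sex difference itself differed between Met/Met and Val/Val hearts (limma interaction, Benjamini-Hochberg adjusted over all genes). Many of the named genes were picked by their values in Val/Val hearts, which this test also uses. The choice of genes and the test are therefore not separate. As Met/Met minus Val/Val, the log2 sex difference of the clock output gene Dbp differed by -2.23 (adjusted p = 3.42e-07, limma). That of Nfil3, the repressor of D-box genes, differed by 1.40 (adjusted p = 0.00276, limma). The clock genes Bhlhe40, Arntl and Tef followed with -1.10, 1.53 and -0.66 (adjusted p = 0.00276, 0.0408 and 0.0408, limma). Outside the clock, the Z-disc gene Tcap differed by -0.99 (adjusted p = 0.000521, limma), the calcium-binding protein gene Cabp1 by 1.34 (0.00276) and the stanniocalcin gene Stc2 by -0.62 (0.0408). The same test between Val/Met and Val/Val hearts passed for 0 of the genes named here (limma).

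Single hearts stood apart from their group in 3 of the 99 sets of female values tested. The male hearts give no such test, since for these genes replicate 3 sits at the mean log2 value of the group and the others lie in mirrored pairs about it. Chance gives about 1 in 20 only where hearts vary freely, and the equal set means limit the females too. Nppa, the atrial natriuretic peptide, had 6439 normalized counts in female replicate 6, and the next female heart had 2771. Rcan1, the calcineurin inhibitor, had 2056 in female replicate 4, against 1799 in the next. The X-linked translation factor gene Eif2s3x had 3557 in female replicate 4, the lowest of the females, and the next had 3836.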

How the results depend on the processing

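Of the 53 autosomal and 4 X-linked genes named here at an adjusted p under 0.05 (limma), 35 kept it in each fit that leaves out 1 heart, 29 with the 11 Val/Val hearts alone, and 23 under every alternative that tested them (7 of the 23 were not tested at a minimum mean of 290). Of 42 named genes without the call, 6 gained it with the 11 hearts alone, 30 without library sets, 26 with the replicate block, and 0 to 7 with a heart left out. The 223 adjusted calls became 74 with the 11 hearts alone, 1129 with 1 mean per group and no library set, and 980 with the replicate number as a block, and ran from 105 to 291 when 1 heart was left out. In the latter 2 models all 223 genes remained called, and the library sets then no longer count against the degrees of freedom. Another offset, minimum, scaling or an untrended fit gave between 193 and 266. The 237 genes by the study's criterion became 69 at a minimum mean of 290, where fewer genes are tested, and ran from 211 to 277 with a heart left out. The 1948 genes at p under 0.05 became 3050 without library sets and 2949 with the replicate block, and ran from 1659 to 2119. Median-of-ratios scaling shifted their split from 1037 higher and 911 lower to 1019 and 1043. Genes with a difference near 0 changed sign. Nppa was at -0.024 with the replicate block and ran from -0.22 (without female replicate 6) to 0.20 (without male replicate 4), and Atp2a2 ran from -0.057 (without female replicate 1) to 0.085 (without female replicate 2). Same-numbered hearts of the sexes correlated at -0.16, -0.16, 0.21 and 0.34 for replicates 1, 2, 4 and 5. Replicates 1 and 2 of both sexes are in 1 library set and replicates 4 and 5 in another, and nothing in the labels ties their numbers beyond that. With no read counts, the depth behind low genes is unknown.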

Other observations

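Nnt, the mitochondrial nicotinamide nucleotide transhydrogenase, had 12979.9, 16118, 14464, 34244 and 6109 normalized counts in male and 33359 to 72769.9 (median 48868) in female Val/Val hearts, and was named after its values were seen. Male replicate 4 lay just above the lowest female heart. Its log2 difference was 1.77 in Val/Val hearts (adjusted p = 0.0329, limma), 1.33 in Val/Met hearts and 1.45 in Met/Met hearts. The call of Nnt was lost in 8 of 11 fits that leave out 1 heart (highest 0.0827, without male replicate 5), and its symbol has no single position in the annotation used.

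On the X chromosome, 11 of 425 tested genes passed an adjusted p under 0.05 (limma), 10 of them higher in females, and all 11 kept their sign in the Val/Met and the Met/Met mice.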
